A study of Mus musculus with 12 samples.

Results

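Reads assigned to 10 genes that are usually taken as marks of hepatocytes were followed through liver and inguinal white fat of mice: Alb, Ttr, Ahsg, Trf, Serpina1a, Serpina1b, Serpina1c, Serpina1d, Serpina1e and Cyp2e1. They were taken by their symbols from a table of 54532 genes, and all 10 were present and were tested in every comparison. The 12 libraries formed 4 groups of 3, wild-type (WT) liver, KO liver, WT white fat and KO white fat, from male mice aged 52 weeks after a 12 hour fast. KO stands for mice whose labelled genotype is a deletion, in the whole body, of the microRNAs miR-322, miR-503 and miR-351. All animals were bled and their vessels rinsed with cold PBS before the tissues were frozen, per the labels' protocols. The labels name no strain and leave unsaid if samples within a group, or a liver and a fat sample with the same number, came from separate mice or from 1 mouse, so a p-value covers the spread among samples only, which may be technical.

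Hepatocytes make most of the protein of blood plasma and release it into the blood. Albumin, transthyretin and transferrin are plasma carriers, fetuin A binds calcium phosphate, and the alpha-1-antitrypsin proteins encoded by the mouse Serpina1 genes block serine proteases such as neutrophil elastase. Cyp2e1 is different in kind, because it encodes a cytochrome P450 of the endoplasmic reticulum membrane that stays in the cell and oxidises ethanol and other small molecules. The name "secreted markers" therefore describes 9 of the genes by the known fate of their products and not Cyp2e1, and "traces in fat" described 8 of them by level, since Trf and Cyp2e1 were well above trace level there.

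Libraries held between 14531438 and 15971178 counts and between 19295 and 22963 detected genes, so that 3 counts in a library correspond to a level of 0.188 to 0.206 CPM, that is, counts scaled to the total of the library. Mir322 had a total of 3 counts in WT liver and 37 in WT fat, Mir503 had 16 and 48, and both were at 0 in all 6 libraries labelled KO. Mir351 went against the label, with 41 counts in KO liver against 9 in WT liver and 146 in KO fat against 33 in WT fat, so KO below is the name of a label. The tissues carried their own marks: Adipoq, the adipocyte hormone adiponectin, lay between 1581 and 2366 CPM in fat and averaged 0.022 CPM in liver, and the summed level of 11 adipocyte markers was 55.9 to 102 CPM in liver and 19396 to 27902 CPM in fat.

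Alb lies on chromosome 5 at 90460897 to 90476602 on the plus strand (GRCm38, from the deposited table). The 250 bases before its RefSeq start site, chr5:90460620-90460869 on the plus strand of GRCm38.p6, are shown next. Capitals mark the letters GTTAAT, a core of sites bound by the liver factor HNF1, and CCAAT, on either strand. Whether these letters bear on the levels in liver or fat was not tested.

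Alb promoter: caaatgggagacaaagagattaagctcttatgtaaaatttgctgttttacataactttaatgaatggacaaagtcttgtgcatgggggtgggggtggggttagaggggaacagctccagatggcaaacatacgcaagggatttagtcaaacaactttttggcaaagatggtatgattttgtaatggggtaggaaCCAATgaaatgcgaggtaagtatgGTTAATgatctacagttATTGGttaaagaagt

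The 5 Serpina1 genes lie together on chromosome 12, all on the minus strand, and their promoters share an identical run of 59 bases. It is given as read at Serpina1e, chr12:103956956-103957014 on the minus strand of GRCm38.p6, with the same capitals.

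Serpina1 promoter run: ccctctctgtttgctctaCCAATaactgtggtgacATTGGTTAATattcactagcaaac

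In this run the letters ATTGG and GTTAAT overlap by a single base. Of the 8 genes whose RefSeq promoter of 300 bases was read, 6 held GTTAAT on either strand, namely Alb and the 5 Serpina1 genes. Ahsg and Cyp2e1 did not hold it. All 8 held CCAAT on either strand. The promoter of Ttr was left out and none was available for Trf, so neither gene is in these counts. Among 32851 promoters of the same length, 7.1% held GTTAAT and 37.41% held CCAAT. The 5 Serpina1 promoters hold GTTAAT within the identical run shown above, so they are not 5 separate observations, and the counts cannot be set against these percentages as if they were. In Ahsg the only CCAAT match lay after the start site. A match describes letters in the window only.

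The 60 bases shown next are the stretch without gaps that holds the most differences among the 5 Serpina1 coding sequences. Over their whole length the coding sequences were 96.29% to 98.47% identical over 10 pairs, with 86 variable positions among 1239 aligned without gaps, and 18 of the 86 fell in this stretch (GENCODE M21 transcripts, GRCm38, chromosome 12, minus strand; coding bases 1101 to 1160, or 1170 to 1229 for Serpina1a). It includes codons of the reactive centre loop, the bait that a target protease attacks. Capitals mark the 18 positions at which the 5 genes are not all alike.

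Serpina1a: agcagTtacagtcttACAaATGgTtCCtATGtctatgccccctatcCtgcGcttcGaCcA
Serpina1b: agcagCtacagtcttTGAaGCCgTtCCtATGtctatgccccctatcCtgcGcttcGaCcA
Serpina1c: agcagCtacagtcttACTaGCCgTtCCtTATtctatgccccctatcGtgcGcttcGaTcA
Serpina1d: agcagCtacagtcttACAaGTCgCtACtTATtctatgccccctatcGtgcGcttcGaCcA
Serpina1e: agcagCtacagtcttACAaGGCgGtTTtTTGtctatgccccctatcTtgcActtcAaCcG

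This likeness bears on how far the counts of each copy can be told apart. Of all stretches of 50 bases in a transcript, 25.8% were found in no other gene for Serpina1c, 32.6% for Serpina1a, 49.1% for Serpina1d, 64.2% for Serpina1b and 64.4% for Serpina1e. How the authors' counting treated reads from the shared stretches is unknown, the Serpina1b locus encloses Serpina1d on the same strand, and Serpina1c overlaps an antisense gene, so values of single Serpina1 genes carry that uncertainty. Alb, Ttr and Ahsg shared no such stretch with another gene. Trf shared 79.8% of its stretches with Gm20425, an overlapping gene model on the same strand that is listed at 0 counts in all 12 libraries. How reads from those stretches were counted is also unknown, so the level of Trf carries the same uncertainty.

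By the counts assigned to each gene, Alb was by far the most abundant of the 10 in liver per length of transcript, and Trf the least. Scaled per kilobase of the gene length in the table, the mean over the 6 liver libraries was 35651 ± 3074 CPM per kb for Alb (SD, n = 6). Cyp2e1 followed at 4169 ± 310 CPM per kb and Ttr at 3591 ± 255 CPM per kb, and the ranges of these neighbours overlapped. Ahsg stood at 2443 ± 469 CPM per kb, Serpina1e at 2443 ± 1453 and Serpina1b at 2162 ± 112, and the ranges of these 3 overlapped. Serpina1d reached 1725 ± 60.9 CPM per kb, Serpina1a 1235 ± 143 and Serpina1c 849 ± 72.1, and these last 3 did not overlap each other. Trf had 129 ± 19.6 CPM per kb, with the counting uncertainty given above. The 10 genes together took 10.6% to 12.7% of all counts in the liver libraries, of which Alb alone took 7.62% to 9.31%.

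Alb, the main protein of plasma and a carrier of fatty acids and bilirubin, measured 87140, 93137 and 89124 CPM in WT liver 1, 2 and 3 and 78159, 77173 and 76229 CPM in KO liver 1, 2 and 3. Every KO library was below every WT library, yet the difference did not pass the test: the log2 fold change was -0.19 ± 0.08 (SE; edgeR's quasi-likelihood test, unadjusted p = 0.0399, adjusted p = 0.387 over 13529 genes). The share of counts from mitochondrial genes also stood apart, at 5.55% to 5.83% in WT liver and 6.52% to 7.35% in KO liver, and its part in the result was not tested. In bulk tissue, fewer cells of a type and less RNA per cell cannot be told apart.

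The other carriers showed no difference that passed. Ttr, which carries thyroid hormone and the retinol-binding protein, measured 4166, 4722 and 4705 CPM in WT liver and 4443, 4298 and 3927 CPM in KO liver, with a log2 fold change of -0.07 ± 0.10. Its groups overlapped. Trf, which carries iron in plasma, measured 380, 451 and 361 CPM in WT liver and 431, 544 and 405 CPM in KO liver, and was the member with the largest positive log2 fold change, 0.24 ± 0.13, with edgeR's adjusted p = 0.466. Ahsg (fetuin A) measured 7097, 5689 and 4579 CPM in WT liver and 4945, 5677 and 4222 CPM in KO liver, with a log2 fold change of -0.20 ± 0.15. The spread of Ahsg within WT liver was wider than the difference between the group means.

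Of the protease inhibitors, 4 were nearly level across the 6 livers and 1 was not. The highest liver library exceeded the lowest by 1.10-fold for Serpina1d, 1.17-fold for Serpina1b, 1.23-fold for Serpina1c and 1.33-fold for Serpina1a, but by 3.97-fold for Serpina1e. Serpina1e measured 7027, 2375 and 1768 CPM in WT liver 1, 2 and 3 and 3134, 6832 and 2562 CPM in KO liver 1, 2 and 3. WT liver 1 and KO liver 2 were the high libraries, 1 in each genotype, and the groups overlapped fully. The log2 fold change of 0.20 ± 0.73 had an interval of -1.79 to 2.20 (95%), and it moved from -0.35 without KO liver 2 to 1.03 without WT liver 1. For the other 4 inhibitors the log2 fold changes lay between -0.08 (Serpina1b) and 0.01 (Serpina1d), each with an SE of 0.09 to 0.12. Serpina1b was the only inhibitor whose groups did not overlap, with 5618, 5354 and 5301 CPM in WT against 5158, 5078 and 4820 CPM in KO liver.

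The genes whose profile over the 6 livers was most like that of Serpina1e were Nucb2, Gstp1, Cyp7b1, Mup11, Gm10184, Egfr, Tbxas1 and Mup1, by a likeness measure chosen for this gene after its spread was seen. Their root mean square (RMS) differences from the centred log2 profile of Serpina1e were 0.20 to 0.35, against a median of 0.78 over 11989 genes, and 6 points underlie each profile. Egfr, the receptor of epidermal growth factor, measured 751, 542 and 263 CPM in WT liver and 576, 1143 and 416 CPM in KO liver. Gstp1, a glutathione transferase, measured 673, 264 and 313 CPM in WT and 474, 905 and 405 CPM in KO liver. Both were highest in the 2 libraries in which Serpina1e was highest, although for Egfr and Gstp1 KO liver 2 exceeded WT liver 1 while for Serpina1e it did not. Mup1 and Mup11 belong to the major urinary protein genes, whose close copies can share reads.

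Cyp2e1 had 9058, 9902 and 9589 CPM in WT liver and 8285, 8254 and 8899 CPM in KO liver. All KO libraries were below all WT libraries, and the log2 fold change was -0.14 ± 0.09 (edgeR, adjusted p = 0.567). Pericentral hepatocytes, which surround the central vein and carry most Cyp2e1 in mouse liver, are also marked by other genes. Of 10 such genes 0 passed in edgeR, DESeq2 or limma voom. In edgeR 1 had an unadjusted p under 0.05, where 12.2% of all genes did. The log2 fold change was below 0 for 8 of the 10, among them Glul (glutamine synthetase, -0.16 ± 0.11). It was above 0 for 2, among them Rgn (0.13 ± 0.12), and the median was -0.13.

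**Figure D1:**
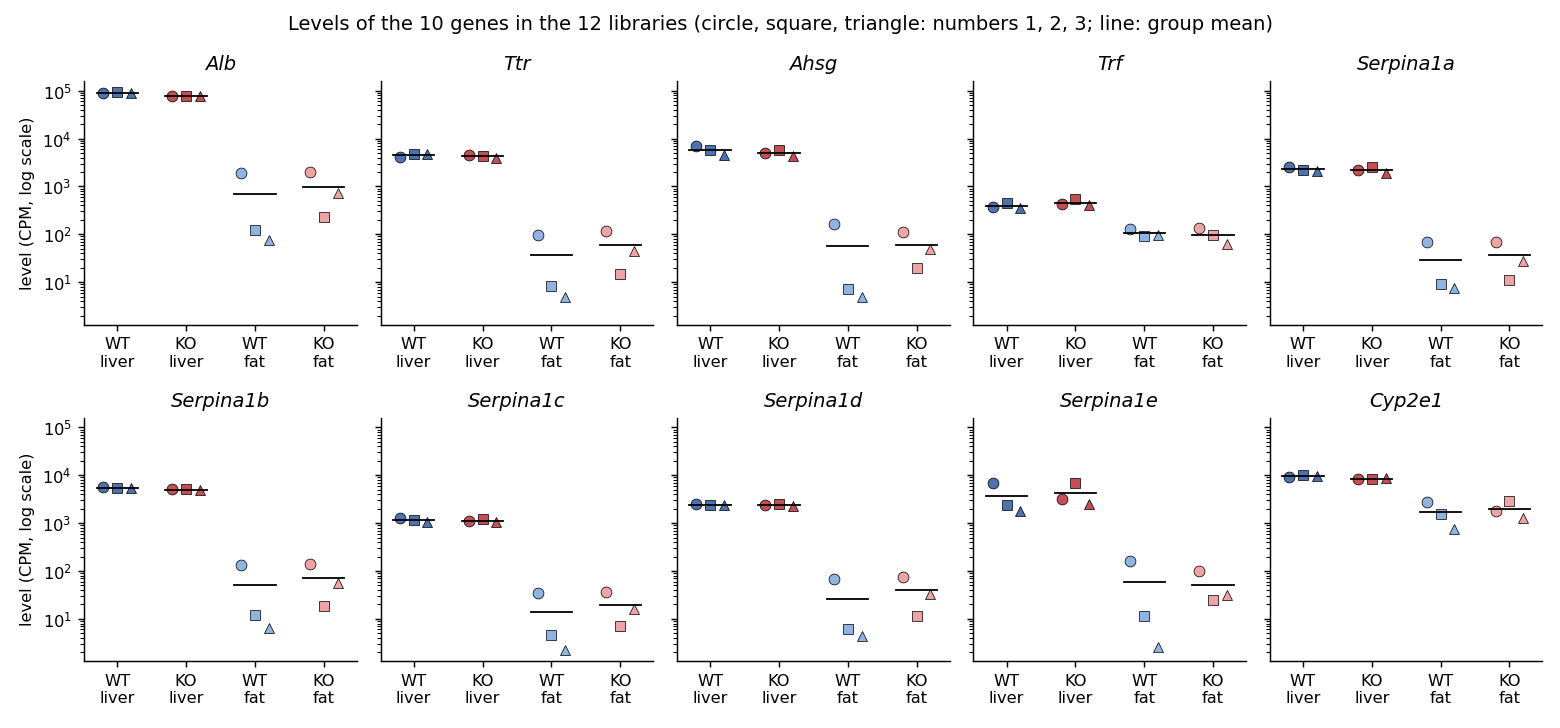
Level of each of the 10 genes in the 12 libraries, in CPM on a log scale, with 3 points per group (circle, square and triangle for the numbers 1, 2 and 3) and a line at the group mean. Liver points lie close together except for Serpina1e, and fat points are spread over more than a 10-fold range for most genes but not for Trf and Cyp2e1.

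Across the 10 genes in liver, 0 passed edgeR's test at an adjusted p under 0.05, where 0.155% of all 13529 genes did. At an unadjusted p under 0.05 there was 1 (Alb), against 12.2% of all genes, and 0 passed with DESeq2 or limma voom. WT and KO libraries stood fully apart for 3 of the 10 (Alb, Serpina1b and Cyp2e1, all lower in KO), where 18.8% of all genes stood apart and 11.1% did so with KO lower. The median log2 fold change of the 10 was -0.05, beside -0.000522 over all genes tested. Among 34 other secreted hepatocyte products 0 passed in edgeR (8 at an unadjusted p under 0.05, 2 with DESeq2 and 0 with limma voom), with a median of 0.09. Among 25 intracellular hepatocyte genes 1 rose in KO liver, Hal (histidine ammonia-lyase), with a log2 fold change of 0.68 ± 0.12 and edgeR's adjusted p = 0.0471, and the median was 0.19. Of these 25 genes 11 had an unadjusted p under 0.05, against 12.2% of all genes, and DESeq2 passed 1 and limma voom 0. Of 13 hepatocyte transcription factors 0 passed in edgeR, DESeq2 or limma voom (1 at an unadjusted p under 0.05), with a median of -0.18.

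In fat, the carriers other than Trf and the inhibitors were found at a small and unequal fraction of their liver level. Alb measured 1863, 125 and 76.8 CPM in WT fat 1, 2 and 3 and 1977, 228 and 731 CPM in KO fat 1, 2 and 3. The highest fat library thus held 25.7 times as much Alb as the lowest. WT fat 1 and KO fat 1 were high, KO fat 3 intermediate and the other 3 low, and the genotypes overlapped. As a share of the mean of the 6 livers, Alb stood at 2.23%, 0.149% and 0.0920% in WT fat and 2.37%, 0.273% and 0.875% in KO fat. Even the lowest of these rested on 1116 counts. These shares compare CPM, and with TMM scaling all 60 shares of the 10 genes in the 6 fat libraries were 0.556 to 0.586 times as large.

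Ttr followed the same order as Alb, with 95.8, 8.39 and 4.95 CPM in WT fat and 117, 15.1 and 45.8 CPM in KO fat. Ahsg measured 161, 7.08 and 4.82 CPM in WT fat and 114, 19.4 and 49.4 CPM in KO fat, so its highest library was WT fat 1 and not KO fat 1. Serpina1e, the most variable in fat as in liver, measured 163, 11.2 and 2.55 CPM in WT fat and 98.4, 25.1 and 32.3 CPM in KO fat, a 64.2-fold range. The lowest of these values rested on 37 counts. The other 4 Serpina1 genes lay between 2.20 CPM (Serpina1c in WT fat 3, 32 counts) and 139 CPM (Serpina1b in KO fat 1).

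These 8 genes moved together from library to library. Their median share of the liver mean was 2.88%, 0.244% and 0.119% in WT fat 1, 2 and 3 and 2.67%, 0.421% and 1.07% in KO fat 1, 2 and 3, with single values from 0.0645% to 4.14%. Within a library the highest share exceeded the lowest by 1.49-fold (KO fat 1) to 5.24-fold (WT fat 3). WT fat 1 and KO fat 1 were the highest 2 libraries for 9 of the 10 genes, all but Cyp2e1, and WT fat 3 was the lowest for 9 of 10, all but Trf. Taking Alb as the yardstick, the share of Ttr was 0.981 to 1.28 times and that of Ahsg 0.882 to 1.34 times that of Alb in the same library. The share of Serpina1a was 1.30 to 1.78 times that of Alb in 4 libraries, 2.76 times in WT fat 2 and 3.67 times in WT fat 3, where it rested on 111 counts. The same ratio ran from 1.33 to 2.68 for Serpina1c and from 0.701 to 2.33 for Serpina1e.

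Trf and Cyp2e1 did not behave as traces. Trf measured 131, 93.8 and 94.8 CPM in WT fat and 133, 98.2 and 63.9 CPM in KO fat, or 30.5%, 21.9% and 22.1% and then 31.1%, 22.9% and 14.9% of its liver mean. Its highest fat library held 2.09 times the lowest, and its RMS difference from the profile of Alb in fat was 1.71, beside 0.14 for Ttr and a median of 1.84 over 13841 genes. Cyp2e1 measured 2700, 1571 and 735 CPM in WT fat and 1824, 2871 and 1248 CPM in KO fat. That is 30.0%, 17.5% and 8.17% and then 20.3%, 31.9% and 13.9% of its liver mean. KO fat 2, low in Alb, was the highest library in Cyp2e1. By median level per length, Cyp2e1 led the 10 genes in fat at 787 CPM per kb, followed by Alb at 205 and Trf at 29.1, and the ranges of neighbours in this order overlapped.

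**Figure D2:**
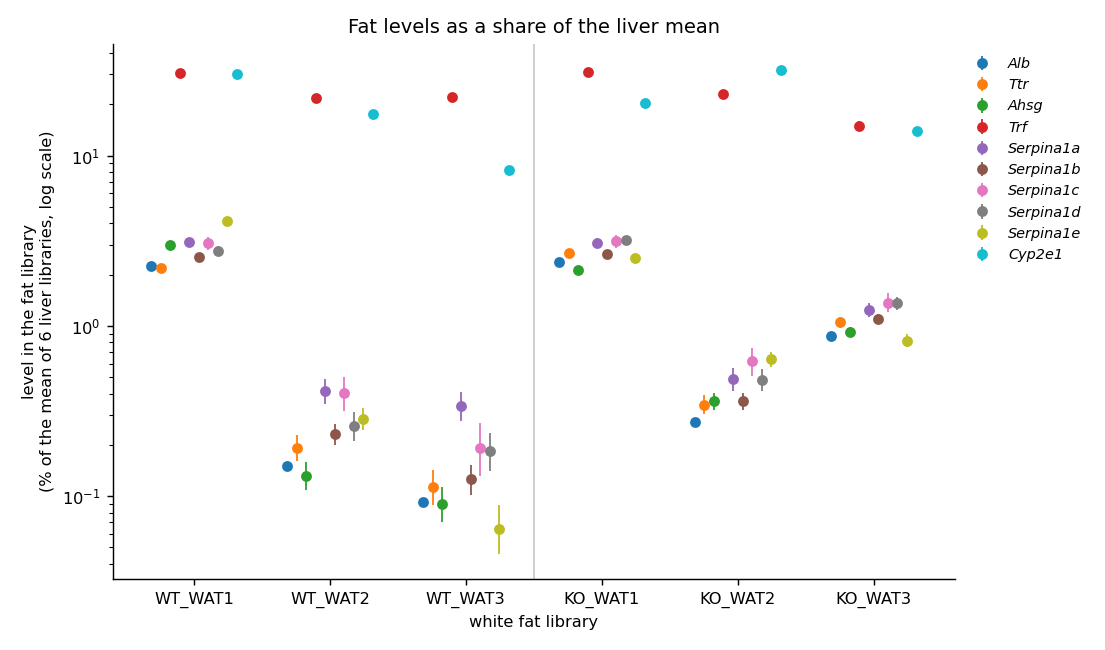
Level of each gene in each white fat library as a percentage of its mean over the 6 liver libraries, on a log scale, with exact 95% Poisson intervals of the fat counts, which cover counting error only. Trf and Cyp2e1 lie between 8.17% and 31.9% in all 6 libraries, and the other 8 genes rise and fall together between 0.0645% and 4.14%.

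The pattern was not limited to the secreted products. The 34 other secreted hepatocyte genes had a median share of the liver mean of 2.45%, 0.192% and 0.0918% in WT fat and 2.61%, 0.444% and 0.9999% in KO fat. The 25 intracellular hepatocyte genes, whose products stay in the cell, had median shares of 2.33%, 0.207% and 0.136% in WT fat and 2.62%, 0.379% and 1.13% in KO fat. Serpina3k, a secreted serpin, reached 2.92% of its liver mean in WT fat 1 and 0.132% in WT fat 3. Cps1, the mitochondrial entry enzyme of the urea cycle, reached 2.65% and 0.0751% in the same libraries. Hnf4a, a nuclear receptor that controls hepatocyte genes, reached 3.44% and 0.0646% in those libraries. Cebpa, which adipocytes also use, stood at 108% to 224% of its liver mean in the fat libraries by CPM. With TMM scaling its log2 difference of liver over fat was 0.59 ± 0.17 in WT (edgeR, adjusted p = 0.0144) and -0.29 ± 0.26 in KO (edgeR, adjusted p = 0.355), so its direction in WT turned with the scaling.

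Genes of other liver cells were measured beside these. Clec4f, which marks Kupffer cells, the macrophages of liver, averaged 32.6 CPM in liver and measured 3.23, 0.376 and 0.0688 CPM in WT fat and 3.88, 0.128 and 1.70 CPM in KO fat, highest in the libraries highest in Alb. Clec4g, of liver sinusoidal endothelium, averaged 18.4 CPM in liver and measured 0.507, 0 and 0.138 CPM in WT fat and 0.816, 0.128 and 0.630 CPM in KO fat. WT fat 1, KO fat 1 and KO fat 3 were the highest libraries for Clec4f and Clec4g, as for Alb, but none of the 7 markers followed the full order of Alb. In these libraries Clec4f stood at 9.91%, 11.9% and 5.22% of its liver mean and Clec4g at 2.76%, 4.45% and 3.43%. The shares of Alb there were lower, at 2.23%, 2.37% and 0.875%. For the other 5 a different set of libraries was highest. As a share of the liver mean, Stab2 lay between 12.3% and 29.3%, Cd5l between 15.7% and 61.9% and Vsig4 between 37.1% and 74.8% in the 6 fat libraries, while Timd4 lay between 242% and 474% and Marco between 80.6% and 570%. Several of the values of Clec4f and Clec4g rest on 3 counts or fewer. The summed level of the 7 Kupffer and sinusoidal markers lay between 23.1 and 37.8 CPM in fat and between 113 and 146 CPM in liver. What part RNA from another tissue has in the fat levels was not tested.

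The nearest profiles to Alb in fat, by RMS difference of centred log2 CPM over the 6 libraries, were those of Rdh7, Kng1, Slc27a5, Rgn, Ces1g, Mat1a, Serpina3k and Hc, at 0.15 to 0.20. Kng1, the kininogen precursor, measured 55.4, 3.51 and 2.96 CPM in WT fat and 63.5, 7.54 and 24.2 CPM in KO fat. Mat1a, the liver methionine adenosyltransferase, measured 94.7, 5.64 and 3.30 CPM in WT fat and 97.7, 10.9 and 48.3 CPM in KO fat. Among 119 genes with a liver mean of at least 1000 CPM, 110 were outside the 10 genes, and 37 of these had a share within 2-fold of that of Alb in all 6 fat libraries, as had 4 of the 10 besides Alb.

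**Figure D3:**
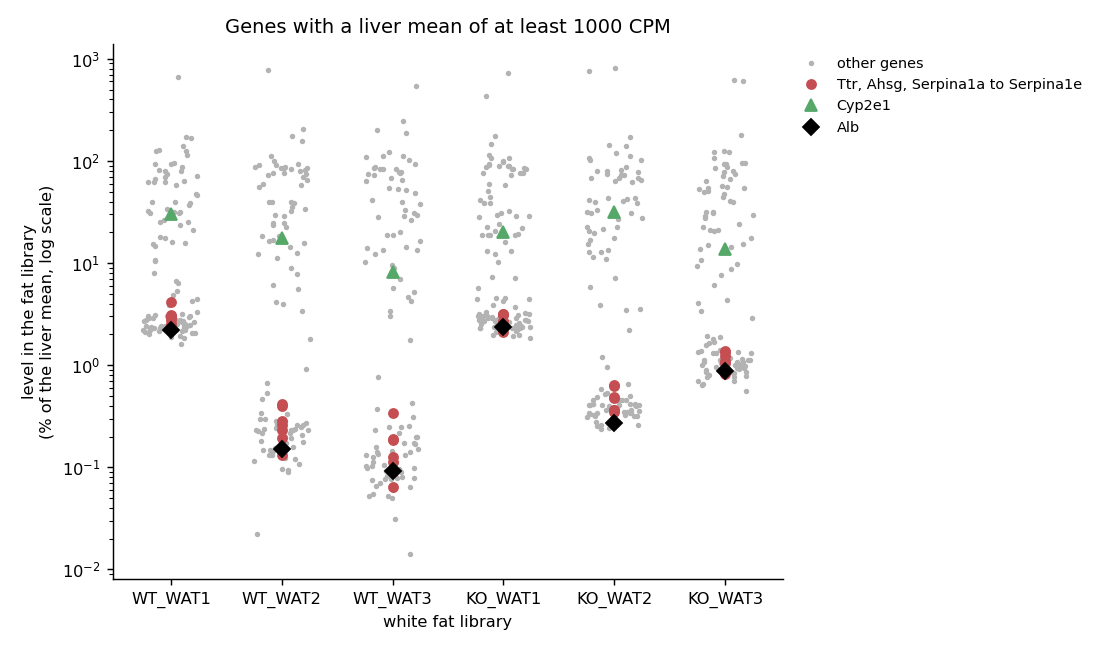
Level in each white fat library as a percentage of the liver mean, on a log scale, for 119 genes with a liver mean of at least 1000 CPM, with values of 0 left off. Points form a lower band around Alb that moves between libraries from 0.0920% to 2.37%, and an upper group that holds Cyp2e1 in all 6 libraries.

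In fat, 0 of the 10 genes differed between the genotypes in edgeR's test, as did 0% of all 15919 genes tested at an adjusted p under 0.05. None had an unadjusted p under 0.05, where 7.64% of all genes did, and 0 passed with DESeq2, which gave no adjusted p for 1 of them, or with limma voom. The groups overlapped for all 10, where 14.9% of all genes did not overlap. The log2 fold change was above 0 for 8 and below 0 for Trf and Serpina1e, with a median of 0.41 beside -0.00269 over all genes. For Alb it was 0.52 ± 1.55 with an interval of -3.58 to 4.63 (95%; edgeR, adjusted p = 0.942). Its sign rested on single libraries, since it was -0.50 without KO fat 1 and 3.26 without WT fat 1. Trf had the narrowest estimate, -0.09 ± 0.27, and Cyp2e1 had 0.28 ± 0.52.

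All 34 other secreted hepatocyte genes and all 25 intracellular ones had a positive log2 fold change in fat, 0 of either list passed in edgeR, DESeq2 or limma voom or had an unadjusted p under 0.05, and both medians were 0.58. These genes were measured in the same 6 libraries and rose and fell together there, so their signs are not independent. Without WT fat 1 and KO fat 1, a choice made after seeing the data, 0 of 10 genes passed, and the log2 fold change of Alb was 2.24 ± 0.67 (edgeR, adjusted p = 0.217). The summed level of 4 red blood cell markers was 284 to 1083 CPM in WT fat and 462 to 591 CPM in KO fat, and that of 8 lymphocyte markers was 263 to 1388 CPM in WT fat and 626 to 1429 CPM in KO fat. The summed level of 4 cholangiocyte markers stood apart, at 54.3 to 62.2 CPM in WT fat and 75.0 to 90.9 CPM in KO fat, although 0 of the 3 tested passed in edgeR (1 at an unadjusted p under 0.05, Krt19). That sum was lower in liver, at 8.52 to 14.7 CPM in WT and 8.79 to 10.9 CPM in KO. Its largest part in fat was Krt19, at 35.9 to 62.1 CPM, so in fat the list does not mark bile duct cells alone. The part of these 3 marker lists in the result was not tested.

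**Figure D4:**
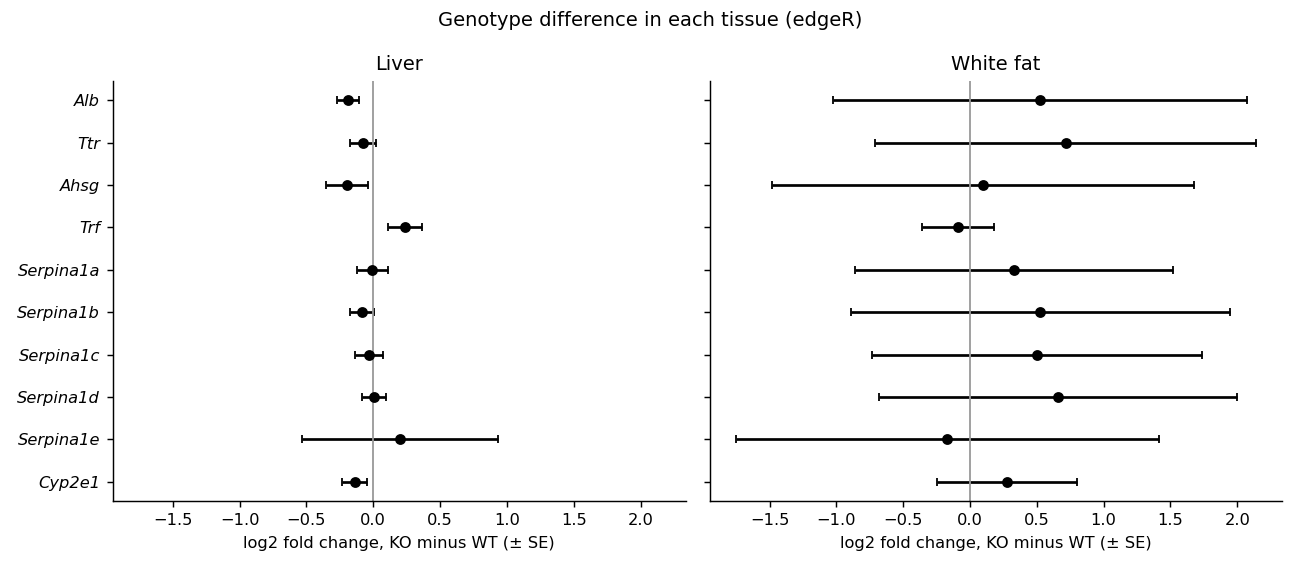
Log2 fold change of KO minus WT for each gene in liver (left) and white fat (right), from edgeR. Bars show 1 SE derived from the F statistic of its test. Estimates in liver lie near 0 with short bars except for Serpina1e, and those in fat have long bars except for Trf and Cyp2e1.

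Between the tissues, all 10 genes were higher in liver in both genotypes. In WT, 10 of 10 passed edgeR's test as higher in liver, where 33.5% of all 15715 genes did. DESeq2 gave no adjusted p for 5 of the 10 in this comparison. The log2 difference of liver over fat was 7.87 ± 1.76 for Alb (edgeR, adjusted p = 0.0122) but 2.73 ± 0.19 for Trf (edgeR, adjusted p = 3.31e-06) and 3.34 ± 0.46 for Cyp2e1. Trf and Cyp2e1 thus had the smallest differences and the narrowest errors. Serpina1e was the least secure, at 6.81 ± 2.03 with edgeR's adjusted p = 0.0324, which rose to between 0.0540 and 0.0778 when WT liver 1, 2 or 3 or WT fat 2 was left out. For Ahsg, 7.49 ± 1.91, the adjusted p rose from 0.0194 to 0.0504 in edgeR without WT liver 1.

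In KO, 10 of 10 passed as higher in liver as well, where 32.6% of all 15648 genes did. The log2 difference was 7.15 ± 0.86 for Alb, 3.05 ± 0.27 for Trf and 2.92 ± 0.33 for Cyp2e1, and between 6.68 (Serpina1c) and 7.18 (Ahsg) for the other 7.

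The genotype effect in fat minus that in liver was estimated from all 12 libraries in 1 model. Of the 10 genes 0 passed edgeR's test, as did 0% of all 16857 genes, 0 of 10 had an unadjusted p under 0.05, 0 passed with limma voom or with DESeq2, which gave no adjusted p for 5 of them, and the estimate for Alb was 0.71 ± 1.60 (edgeR, adjusted p = 0.904). This outcome depended on the pair of fat libraries richest in Alb. With WT fat 1 and KO fat 1 left out, a choice made after seeing the data that leaves 2 libraries per fat group, 713 genes (4.16%) passed, and 6 of the 10 were among them: Alb, Ttr, Ahsg, Serpina1b, Serpina1c and Serpina1d. The estimate for Alb was then 2.48 on the log2 scale (edgeR, adjusted p = 0.0491), and those of the other 5 were between 1.81 and 2.77. Because the libraries were chosen by their level of Alb, this is a description of the remaining ones and not a test that is independent of that choice. The 6 genes also moved together from library to library in fat, so they are not 6 separate observations to set beside the 4.16%.

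The part of the Serpina1 counts that came from Serpina1e varied between livers and between fat libraries. It made up 37.0% of the counts of the 5 genes in WT liver 1, 17.6% in WT liver 2 and 14.0% in WT liver 3, and 22.4%, 37.5% and 20.3% in KO liver 1, 2 and 3. In the fat libraries with the same genotype and number it made up 35.0%, 25.8% and 10.9% in WT and 23.5%, 34.1% and 19.4% in KO. The libraries rich in Serpina1e in liver, WT 1 and KO 2, were those rich in it in fat. The 95% binomial interval (Clopper-Pearson, counting error only) of the fat value held the liver value of the same number for WT 3 and KO 3, and the difference was largest for WT 2, at 8.20 points. Serpina1b made up 39.7% and 42.0% in WT liver 2 and 3 but 27.7% and 28.0% in WT fat 2 and 3. Over the 5 genes and 6 numbered pairs, the interval held the liver value in 7 of 30 cases.

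Serpina1a made up 13.6% to 16.9% of the counts in liver and 15.0%, 21.5% and 32.7% in WT fat 1, 2 and 3, with an interval of 27.8% to 38.0% for the last. WT fat 2 and 3 had the fewest counts of the 5 genes, 693 and 339. In KO fat it made up 16.6%, 14.9% and 17.0%. Over all 5 genes, the liver library nearest in make-up carried the same genotype and number for 4 of 6 fat libraries, WT 3 and all 3 of KO. The distance taken was 0.5 times the summed absolute difference of the 5 shares, in percentage points. The nearest lay at 3.78, 5.79 and 4.54 points for KO fat 1, 2 and 3 and at 17.0 points for WT fat 3, whose next nearest, WT liver 2, lay at 18.4 points. WT fat 1 lay nearest to KO liver 2, at 2.53 points, and next to WT liver 1, at 3.31 points, while WT fat 2 lay nearest to KO liver 2, at 11.9 points, and had WT liver 2 as the fifth nearest, at 15.6 points.

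**Figure D5:**
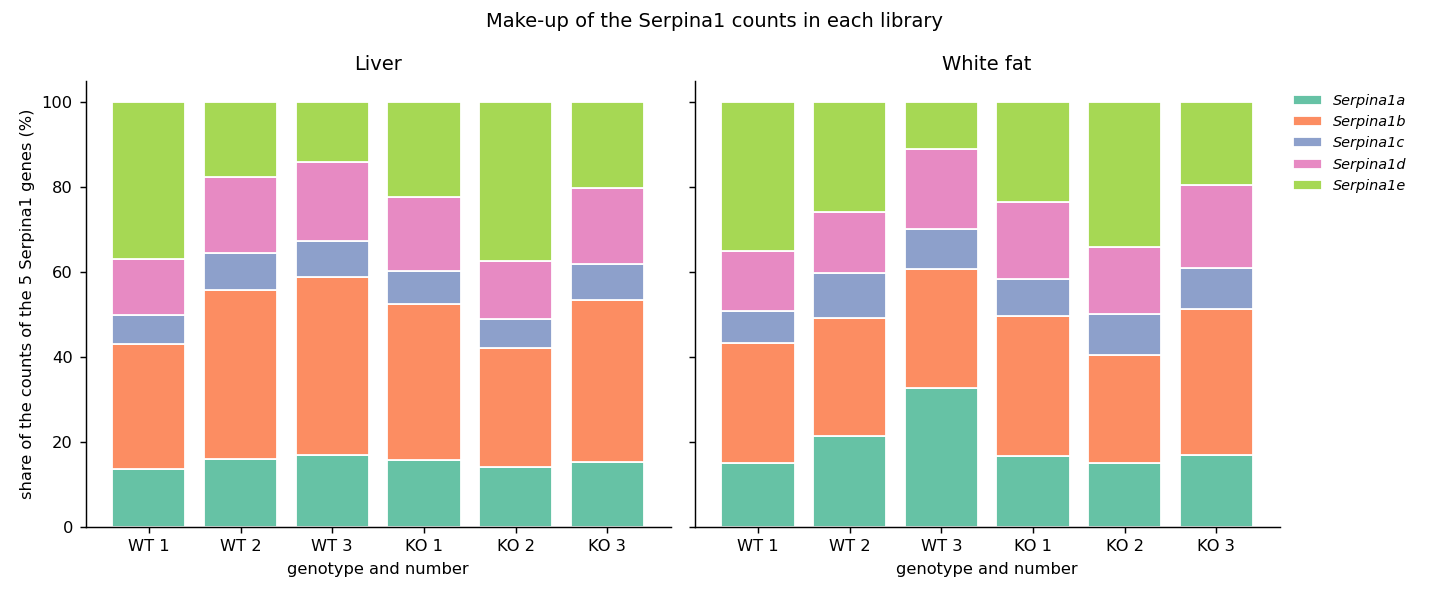
Share of each Serpina1 gene in the counts of the 5 genes, in percent, in the 6 liver libraries (left) and the 6 white fat libraries (right). The Serpina1e segment is tall in WT 1 and KO 2 in both tissues, and the Serpina1a segment is tallest in WT fat 3, at 32.7%.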

How the data were processed

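RNA-seq of total RNA (TRIZOL; directional NEBNext kit, per the labels' protocols) gave 1 library per sample. The deposited table holds whole read counts per Ensembl gene, which the authors did not normalise as far as the values show, with a gene length in bases. CASAVA 1.8 and HISAT2 and the builds GRCm38 and mm10 are named per the submitters' processing notes. How reads were assigned to genes (program, strand option, gene models) is not given in the sources used here. Chi-square per degree of freedom between libraries of a group was 9.83 to 77.0, so no library was a copy of another.

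CPM used library totals. Shares divide a fat CPM by the mean of the 6 liver CPM; their intervals cover counting error only. Each comparison was fitted to the whole table in R 4.3.3 with edgeR 4.0.16 (TMM, filterByExpr, robust quasi-likelihood F test; Benjamini-Hochberg adjusted p under 0.05). The fitting code was tested on simulated data with known answers. Alternatives used DESeq2 1.42.0, limma voom 3.58.1, other size factors, no filter, GC and length offsets, a replicate block, a fit of all 4 groups, each library left out, and other reference levels for the shares. Coding sequences were aligned with mafft 7.526; promoters are from RefSeq (GRCm38.p6), of which 8 of 10 genes were used.

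The 10 genes, the gene lists and the likeness rule were chosen with earlier results of these data known. In each list up to 4 genes with the highest mean CPM could be named, plus those that passed. Clec4f, Clec4g, Hnf4a beside Cebpa, Serpina3c and the genes near Serpina1e were picked after their values were seen. Likeness is the RMS difference of log2 CPM (prior count 2) profiles centred on their means, over protein-coding genes. Same-numbered libraries had correlations of deviations from group means between -0.03 and 0.17, so the numbers were not taken to pair samples. Some genes that the rule takes are left out.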

Additional observations from a re-analysis of the deposited data

How the results depend on the processing

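Counts of genes that passed over the whole table varied with the settings. In liver, where 21 passed, there were 378 with no filter, 152 with DESeq2, 3 with limma voom, 4 with the GC and length trend removed, 10 with that trend removed and the replicate block, 1 with all 4 groups in one fit, and 5 to 34 with a library left out. In fat, where 0 passed in edgeR (1216 at an unadjusted p under 0.05), there were 29 with no filter, 43 with DESeq2, 3 with all 4 groups in one fit and 0 to 1 with a library left out. For fat minus liver, where 0 passed in edgeR (2255 at an unadjusted p under 0.05), there were 21 with no filter, 188 with DESeq2, 0 to 34 with a library left out and 713 without WT fat 1 and KO fat 1. The 10 genes stayed on the same side of the threshold in liver and in fat under every setting with an adjusted p. In KO liver against KO fat all 130 values kept their direction and passed. In WT, 6 of 125 no longer passed, with their direction kept. The cause of these changes was not tested.

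Signs of small genotype differences turned. In liver, Serpina1a became 0.0101 and Serpina1c 0.0125 with the GC and length trend removed, 0.00602 and 0.0137 with the replicate block added, and Serpina1a 0.00289 with all 4 groups in one fit. With a library left out, liver values ranged from -0.123 to 0.0780 for Serpina1a, -0.0996 to 0.0306 for Serpina1c, -0.0248 to 0.0332 for Serpina1d and -0.35 to 1.03 for Serpina1e. In fat, Serpina1e became 1.33 with limma voom, 1.20 with the replicate block, 1.05 with the block and the GC and length trend removed, and 2.05 without WT fat 1 and KO fat 1, and Ahsg became -0.0415 with the GC and length trend removed. With a library left out, fat values ranged from -0.50 to 3.26 for Alb, -0.23 to 3.13 for Ttr, -0.72 to 3.34 for Ahsg, -0.36 to 0.15 for Trf, -0.55 to 2.08 for Serpina1a, -0.38 to 2.92 for Serpina1b, -0.27 to 2.50 for Serpina1c, -0.19 to 2.90 for Serpina1d, -1.01 to 2.89 for Serpina1e and -0.12 to 0.79 for Cyp2e1. For fat minus liver, Serpina1e became 0.96 with limma voom, 0.0234 with the replicate block, 1.03 with the block by genotype and number and 1.89 without WT fat 1 and KO fat 1. With a library left out, that difference ranged from -0.31 to 3.50 for Alb, -0.16 to 3.26 for Ttr, -0.52 to 3.58 for Ahsg, -0.54 to 2.13 for Serpina1a, -0.29 to 3.06 for Serpina1b, -0.23 to 2.58 for Serpina1c, -0.20 to 2.95 for Serpina1d and -1.21 to 2.73 for Serpina1e. The cause was not tested.

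The replicate block changed the call of none of the 10 genes, and 28 genes passed in liver with it. Shares of the liver mean were multiplied by 0.556 to 0.586 with TMM scaling, by 0.759 to 0.788 with CPM outside the 100 most abundant genes of each tissue, and by 0.927 to 1.08 with the liver mean of the same genotype or of WT. Depth limits the lowest shares, where a value rests on as few as 32 counts.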

Other observations

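Partners of these proteins in plasma, membrane or microsome were in part well expressed in fat. Rbp4, the retinol-binding protein that travels with transthyretin, stood at 12.3% to 22.7% of its liver mean of 2479 CPM in the 6 fat libraries. Por, the reductase that feeds electrons to Cyp2e1, stood at 37.0% to 84.5%, and Cyb5a, its second electron donor, at 48.5% to 59.3%. Of the receptors of transferrin, Tfrc stood at 117% to 169% of its liver mean by CPM. With TMM scaling its direction turned, since its log2 difference of liver over fat was 0.44 ± 0.17 in WT (edgeR, adjusted p = 0.0446) and 0.21 ± 0.16 in KO (edgeR, adjusted p = 0.261). Tfr2, which is typical of hepatocytes, lay at 1.37% to 3.57% and did not follow the order of Alb. It was highest in WT fat 3, the library lowest in Alb, and stood at 2.39% in WT fat 1 and 3.41% in KO fat 1. These receptors were named after their values were seen. Gc and Fetub, relatives of Alb and Ahsg that are secreted by liver, lay at 0.114% to 2.67% and 0.123% to 2.86%.

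The clade A serpins beside the Serpina1 genes were of more than 1 kind. Serpina3n stood at 81.5% to 140% of its liver mean in fat by CPM, and with TMM scaling it was higher in liver, with a log2 difference of 0.59 ± 0.21 in WT (edgeR, adjusted p = 0.0294) and 0.57 ± 0.17 in KO (edgeR, adjusted p = 0.0123). Serpina6, the corticosteroid carrier, lay at 0.0596% to 2.33% and Serpina10 lay at 0.0811% to 3.17%. Serpina3c, named after its values were seen, went the other way. It measured 162 to 213 CPM in the fat libraries and averaged 0.135 CPM in liver. In edgeR's test of genotype, 0 of the 9 tested members of this list passed in liver (2 at an unadjusted p under 0.05) and 0 of 9 in fat (0 unadjusted), and 0 passed in either tissue with DESeq2 or limma voom. Of the partners, 0 of 10 passed in each tissue in edgeR (3 in liver and 1 in fat at an unadjusted p under 0.05), and DESeq2 passed 1 in liver.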
